A study of Mus musculus with 6 samples.

Results

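Genes of cholesterol and fatty acid synthesis that are targets or regulators of the sterol regulatory element-binding proteins (SREBPs) were examined in intestinal villi of mice with an epithelial deletion of Trpm7, the gene of a channel kinase. The set was a list of 35 genes, matched by symbol to the annotation of the array. Where a gene had more than 1 probe set, the brighter one over the 6 arrays was read, which gave 34 genes of the 19938 with a probe set of their own. Acat2 had no such probe set and is not analysed here. The list held enzymes of sterol synthesis, the SREBP factors with the proteins that hold or release them, a pair of sterol transport genes, and genes of fatty acid synthesis and desaturation.

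Villi were taken from the intestines of littermates at an age of 5 days (P5), 3 control replicates (Trpm7 fl/fl) and 3 mutant replicates (Trpm7 fl/fl;Villin1-Cre). All 6 replicates therefore carry the floxed allele, and the groups differ in the Villin1-Cre transgene, whose promoter is active in intestinal epithelium. The stromal, vascular and immune cells of a villus are not cells in which this promoter is active. The labels give the genetic background as C57BL/6 and the sex as unknown. The methods name 129S6/SvEvTac for the floxed line and C57BL/6J for the Cre line, so that the littermates would share a mixed background. The replicates are counted as littermates without a statement that each array held a single pup, so the p-values measure the spread between these samples. Each replicate was hybridised to 1 Affymetrix whole-transcript array, and the values are log2 signals. In whole villi, fewer cells of a type and less RNA per cell cannot be told apart.

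SREBPs are transcription factors made as membrane proteins of the endoplasmic reticulum. SCAP escorts them to the Golgi apparatus, where proteases free the active part, and INSIG proteins hold SCAP back when membrane sterol is plentiful. SREBP-2, the product of Srebf2, acts mainly on sterol synthesis and uptake, and SREBP-1, the product of Srebf1, mainly on fatty acid synthesis. Enterocytes both make cholesterol and take it up from the lumen, and in suckling pups they absorb a milk diet rich in fat.

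Promoters of members are shown because SREBPs are known to act with the co-factors NF-Y and Sp1, which bind CCAAT and GC boxes. Binding of these factors was not measured here. The sequences are the 250 bases before the annotated transcript start in RefSeq (GRCm38.p6), written from the upstream end to the start on the strand of the gene. Capitals mark matches, on either strand, to CCAAT, to GGGCGG (the GC box) and to TCACNCCAC (a sterol regulatory element type), with CACGTG (the E-box type) searched as well. None of these letters overlap in the windows printed. Msmo1, Cyp51 and Idi1 rose most among the sterol enzymes with a window, Hmgcs1 holds the single TCACNCCAC match, Srebf2 encodes the factor, and Elovl6 fell.
Msmo1, chr8:64733579-64733828, minus strand: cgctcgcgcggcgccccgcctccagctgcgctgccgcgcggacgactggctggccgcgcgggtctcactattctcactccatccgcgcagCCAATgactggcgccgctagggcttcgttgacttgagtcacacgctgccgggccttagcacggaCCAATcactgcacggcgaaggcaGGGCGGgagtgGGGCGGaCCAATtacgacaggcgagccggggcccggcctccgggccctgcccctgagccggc
Cyp51, chr5:4104698-4104947, minus strand: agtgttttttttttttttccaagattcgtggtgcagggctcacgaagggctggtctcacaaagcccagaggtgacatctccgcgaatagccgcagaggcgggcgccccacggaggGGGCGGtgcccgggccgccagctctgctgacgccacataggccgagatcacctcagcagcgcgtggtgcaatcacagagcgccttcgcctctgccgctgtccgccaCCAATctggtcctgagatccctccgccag
Idi1, chr13:8885356-8885605, plus strand: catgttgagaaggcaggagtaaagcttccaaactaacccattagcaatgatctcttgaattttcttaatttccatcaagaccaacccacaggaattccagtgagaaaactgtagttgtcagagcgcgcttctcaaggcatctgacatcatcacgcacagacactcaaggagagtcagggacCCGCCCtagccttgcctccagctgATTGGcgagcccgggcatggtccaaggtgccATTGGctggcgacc
Hmgcs1, chr13:119690101-119690350, plus strand: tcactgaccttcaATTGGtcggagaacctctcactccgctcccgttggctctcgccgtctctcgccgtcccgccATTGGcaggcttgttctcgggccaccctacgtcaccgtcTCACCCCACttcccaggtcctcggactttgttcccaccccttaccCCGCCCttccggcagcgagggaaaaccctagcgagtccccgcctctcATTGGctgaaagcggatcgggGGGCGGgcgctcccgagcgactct
Srebf2, chr15:82147019-82147268, plus strand: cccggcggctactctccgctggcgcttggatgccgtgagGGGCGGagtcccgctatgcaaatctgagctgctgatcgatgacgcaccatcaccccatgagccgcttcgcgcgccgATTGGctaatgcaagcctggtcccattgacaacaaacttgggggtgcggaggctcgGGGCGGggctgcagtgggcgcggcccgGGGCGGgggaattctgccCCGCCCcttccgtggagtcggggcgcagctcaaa
Elovl6, chr3:129532136-129532385, plus strand: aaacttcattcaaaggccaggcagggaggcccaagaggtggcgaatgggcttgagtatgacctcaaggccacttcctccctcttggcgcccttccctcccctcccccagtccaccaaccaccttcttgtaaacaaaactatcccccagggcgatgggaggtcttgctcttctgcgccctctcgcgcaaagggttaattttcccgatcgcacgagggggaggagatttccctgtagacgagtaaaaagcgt

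In Msmo1 the CCAAT letters lay 160 to 156, 96 to 92 and 55 to 51 bases before the start, and the GC boxes 73 to 68 and 62 to 57 bases before it. The TCACNCCAC match of Hmgcs1 lay 137 to 129 bases before its start, between CCAAT letters at 176 to 172 and at 45 to 41 bases. The Elovl6 window held none of the 4 motifs. A window was at hand for 27 of the 34 members and for 27025 genes in all. CCAAT was in 22 of the 27 windows and in all 14 of the sterol enzymes with one, whereas 37.5% of all genes held it. GGGCGG was in 21 of the 27 and in 13 of the 14 sterol enzymes, against 35.4% of all genes and 49.4% of the genes that the array measured. CACGTG was in 6 of the 27 (Hsd17b7, Sc5d, Dhcr7, Insig1, Scap and Elovl5) against 6.86% of genes, and TCACNCCAC in 1 of the 27 against 1.22%. Of the 7 fatty acid genes with a window, 3 held CCAAT (Fasn, Acss2 and Elovl5). Elovl5, which fell as Elovl6 did, thus held CCAAT and CACGTG. Ebp, a sterol enzyme that was not called, held CCAAT and GGGCGG. These matches describe the letters in the window and do not show a site or a cause.

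Trpm7 itself read 9.11, 8.96 and 9.03 in control arrays and 8.03, 7.79 and 7.88 in mutant arrays, and fell by 1.13 ± 0.09 on the log2 scale (SE, n = 3 and 3, limma adjusted p = 1.9e-04). Array medians were alike, from 6.24 to 6.30. Control replicates 2 and 3 held both Xist (9.82 and 9.66) and the Y-linked Eif2s3y (7.71 and 7.84), while replicate 1 of each group had Xist at 10.18 or more and Eif2s3y at 3.63 or less. Mutant replicates 2 and 3 had little Xist (4.76 and 5.26) and high Eif2s3y (8.38 and 8.5). Control replicates 2 and 3 were also the pair with the highest correlation over all probe sets (0.997) and with most identical values (1055 of 30177). Alb, the albumin gene of hepatocytes, read 12.13 in mutant replicate 3 and 5.55 to 8.57 elsewhere. Defining enterocyte markers were present on every array, with Alpi, the intestinal alkaline phosphatase, at 13.70 to 13.79. Apoa4 read the highest value of its array on all 6, so its level is at the top of the scale and the summed signal of this list is not used here.

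Among the 34 members, 20 rose and 3 fell in mutant villi (limma, Benjamini-Hochberg adjusted p of at most 0.05 over all 30177 probe sets). The background was 8.04% of all probe sets that rose and 8.82% that fell. Leaving out each replicate in turn gave 15 to 18 rises and 2 or 3 falls. With control replicates 2 and 3 averaged to 1 sample, 17 members rose and 2 fell, against 5.77% of all probe sets that then rose. With the arrays centred on their medians, 6.61% of probe sets rose, and rises made up 36.6% of all calls against 47.7% as deposited. The members then stood at 19 rises and 3 falls. The 3 mutant arrays lay above the 3 control arrays for 24 members, against 16.9% of all probe sets, and below them for 4 members, against 17.6%. A rise of at least 2-fold was called for 5 members (Msmo1, Sqle, Cyp51, Idi1 and Fdft1), against 1.35% of all probe sets. The median difference of the members was 0.48 on the log2 scale, and that of all probe sets was 0.00.

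**Figure D1:**
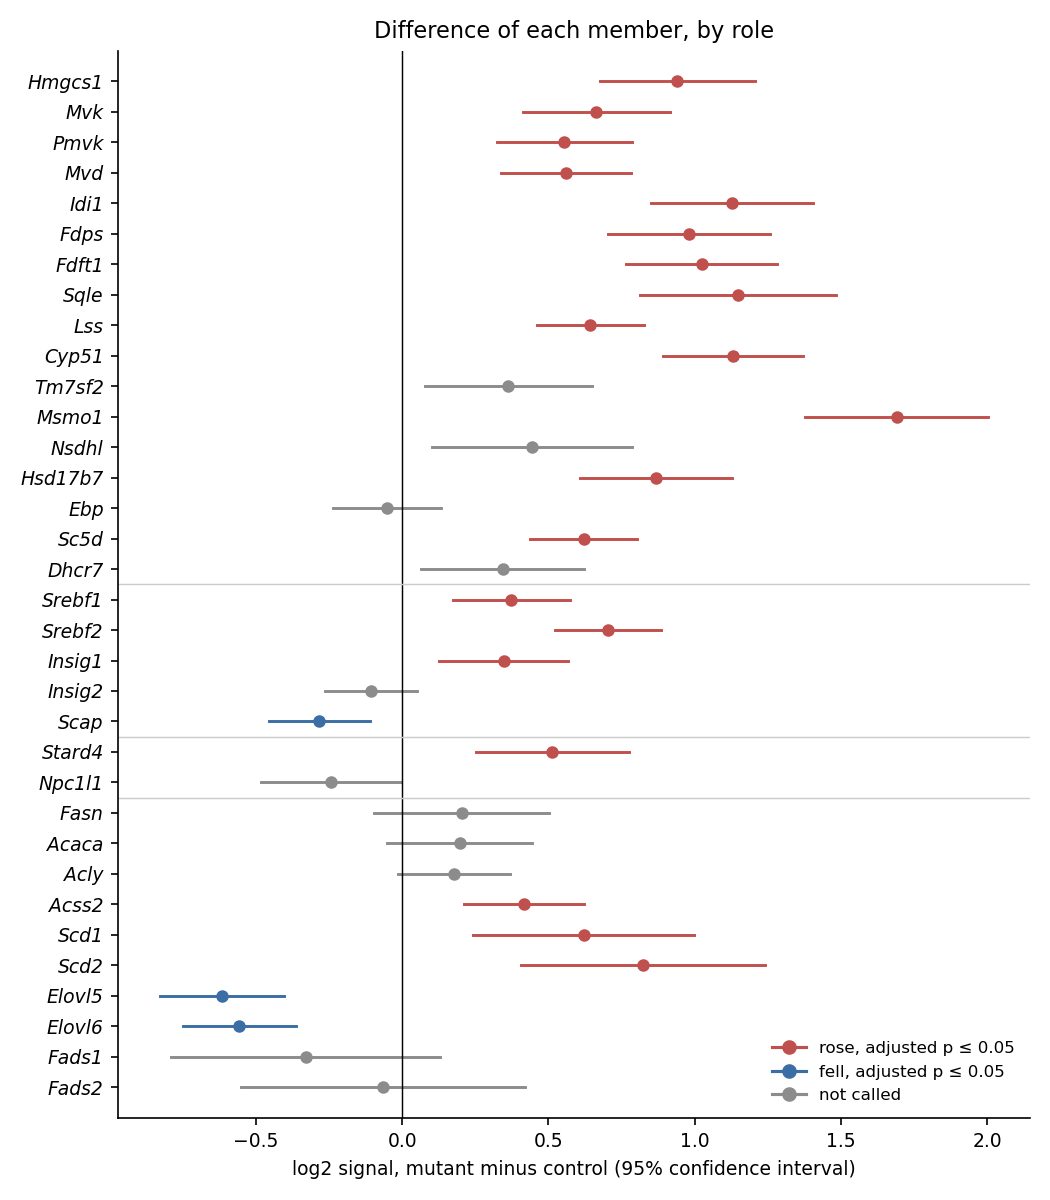
Log2 signal in mutant minus control villi (x axis) for each of the 34 members (y axis, grouped by role: sterol enzymes, SREBP factors and regulators, sterol transport, fatty acid genes). Points are differences between the means of 3 mutant and 3 control replicates, lines are 95% confidence intervals, and colours mark genes that rose, fell or were not called at an adjusted p of 0.05. The sterol enzymes lie to the right of 0 except Ebp, and the fatty acid genes lie on both sides.

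Enzymes of sterol synthesis rose from the start of the pathway to its late steps. Of 17 sterol enzymes measured, 13 rose, none fell and 4 were not called (background 8.04% and 8.82%). Their median difference was 0.66 on the log2 scale. The adjusted p-values of the 13 ran from 2.2e-04 (Msmo1) to 0.00791 (Pmvk) in the limma fit over all probe sets. Each of the 13 was called in all 6 fits that left out 1 replicate. Because replicates 2 and 3 held Y-linked transcripts and replicate 1 did not, the difference was also taken within each set. Replicates 2 and 3 are not matched in Xist, which was high in those controls and low in those mutants. Replicate 1 is 1 array per group. A part of sex or of mixed samples in the differences was not tested. Replicate 1 alone gave 16 of 17 genes higher in the mutant (47.5% of all probe sets) with a median of 0.94, and the means of replicates 2 and 3 gave 17 of 17 (50.6% of all probe sets) with a median of 0.59.

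The mevalonate steps came first. Hmgcs1, which makes the HMG-CoA that the pathway starts from, read 9.69, 9.81 and 9.93 in control arrays and 10.97, 10.60 and 10.68 in mutant arrays, a rise of 0.94 ± 0.11 (SE) on the log2 scale. Mevalonate kinase, Mvk, read 7.15, 7.05 and 7.07 against 7.99, 7.63 and 7.64, a rise of 0.66 ± 0.11. Pmvk, the next kinase, read 7.90, 8.16 and 8.11 against 8.68, 8.68 and 8.47, a rise of 0.55 ± 0.10. Mvd, which removes the carboxyl group to give isopentenyl diphosphate, read 7.45, 7.37 and 7.26 against 8.06, 7.77 and 7.93, a rise of 0.56 ± 0.10. In each of these genes the lowest mutant array lay above the highest control array.

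The next steps make the isoprene units and join them up to squalene. Idi1, the isomerase that makes the second isoprene unit, read 7.19, 7.46 and 7.57 in controls and 8.66, 8.37 and 8.57 in mutants, a rise of 1.13 ± 0.12 on the log2 scale. Its second probe set gave 1.21 ± 0.13. Fdps, which makes farnesyl diphosphate, read 7.47, 7.44 and 7.56 against 8.72, 8.25 and 8.44, a rise of 0.98 ± 0.12. Fdft1, squalene synthase and the first step committed to sterols, read 9.32, 9.15 and 9.20 against 10.47, 10.08 and 10.19, a rise of 1.02 ± 0.11, with 1.01 ± 0.14 from its second probe set. No control array overlapped the mutant arrays in any of the 3 genes.

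Squalene is then oxidised and closed into a ring. Sqle, squalene epoxidase, a rate-limiting step of the pathway, read 7.83, 7.95 and 8.06 in controls and 9.42, 8.85 and 9.01 in mutants, a rise of 1.15 ± 0.15 on the log2 scale. Lss, which closes the ring to lanosterol, read 7.85, 7.97 and 7.98 against 8.66, 8.5 and 8.57, a rise of 0.64 ± 0.08. Of the 17 sterol enzymes, Sqle had the widest spread among the mutant arrays (SD 0.29), and for both genes the groups stood apart.

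The steps from lanosterol to cholesterol held the largest rise of the set and also the 4 enzymes that were not called. Msmo1, which oxidises the methyl groups at carbon 4 of the sterol ring, read 9.58, 9.47 and 9.52 in controls and 11.53, 11.13 and 10.98 in mutants, a rise of 1.69 ± 0.14 on the log2 scale, or 3.23-fold. Cyp51, the lanosterol demethylase, read 8.13, 8.32 and 8.19 against 9.53, 9.20 and 9.30, a rise of 1.13 ± 0.10 or 2.19-fold. Hsd17b7, the ketosteroid reductase that acts in the same removal of methyl groups as Msmo1, read 9.26, 9.5 and 9.55 against 10.40, 10.39 and 10.12, a rise of 0.87 ± 0.11. Sc5d, a desaturase near the end of the pathway, read 10.71, 10.63 and 10.65 against 11.40, 11.22 and 11.23, a rise of 0.62 ± 0.08.

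Tm7sf2, a sterol reductase, differed by 0.36 (95% interval 0.08 to 0.65, limma adjusted p = 0.0894). Nsdhl, the dehydrogenase between Msmo1 and Hsd17b7, differed by 0.44 (0.10 to 0.78, limma adjusted p = 0.0820). Dhcr7, the last reductase, differed by 0.34 (0.07 to 0.62, limma adjusted p = 0.0971). Their mutant arrays all lay above their control arrays, as they did for 16.9% of all probe sets. The intervals, which are not adjusted for the number of probe sets, reach the size of the smaller rises among called enzymes. Control replicate 1 had a Tm7sf2 signal of 7.22, above the 6.89 and 6.78 of the other controls. Without that replicate Tm7sf2 was called (limma adjusted p = 0.0193). Among the 6 fits without 1 replicate only that fit called Tm7sf2, with limma adjusted p-values of up to 0.242 in the others. Tm7sf2 was also called with array weights (limma adjusted p = 0.0335). Ebp, the sterol isomerase, read 8.94, 8.72 and 8.81 in controls and 8.75, 8.77 and 8.79 in mutants, with a difference of -0.05 (-0.24 to 0.13, limma adjusted p = 0.713). It was the one sterol enzyme whose groups overlapped.

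**Figure D2:**
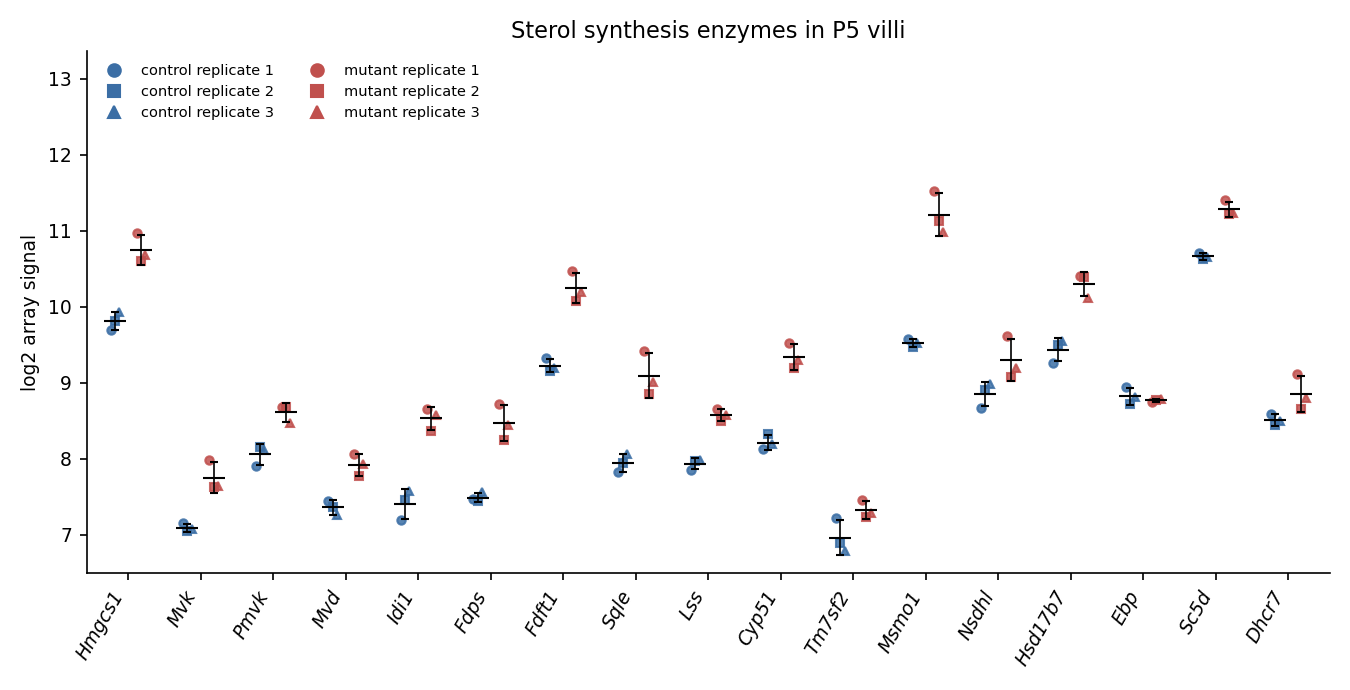
Log2 array signal (y axis) of the 17 sterol synthesis enzymes in pathway order (x axis) in control (blue) and mutant (red) villi, 3 replicates each with a marker per replicate number. Horizontal bars are means and vertical bars are SD, and signals of different genes are not on one scale. Mutant replicate 1 is the highest array for 16 of the 17 genes (tied in Pmvk), and in Ebp the groups overlap.

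Mutant replicate 1 was the highest array for 16 of the 17 sterol enzymes, tied with mutant replicate 2 in Pmvk. Over all 30177 probe sets it was the highest of the mutant arrays for 9985, ties included. The median shift of the 17 genes from their control means was 0.90 in mutant replicate 1, 0.62 in mutant replicate 2 and 0.64 in mutant replicate 3, while the control arrays stayed between -0.02 and 0.00. The fatty acid genes did not follow that order, since mutant replicate 3 was the highest mutant array for 6 of the 10. It was so for 10264 of all 30177 probe sets, ties included.

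**Figure D3:**
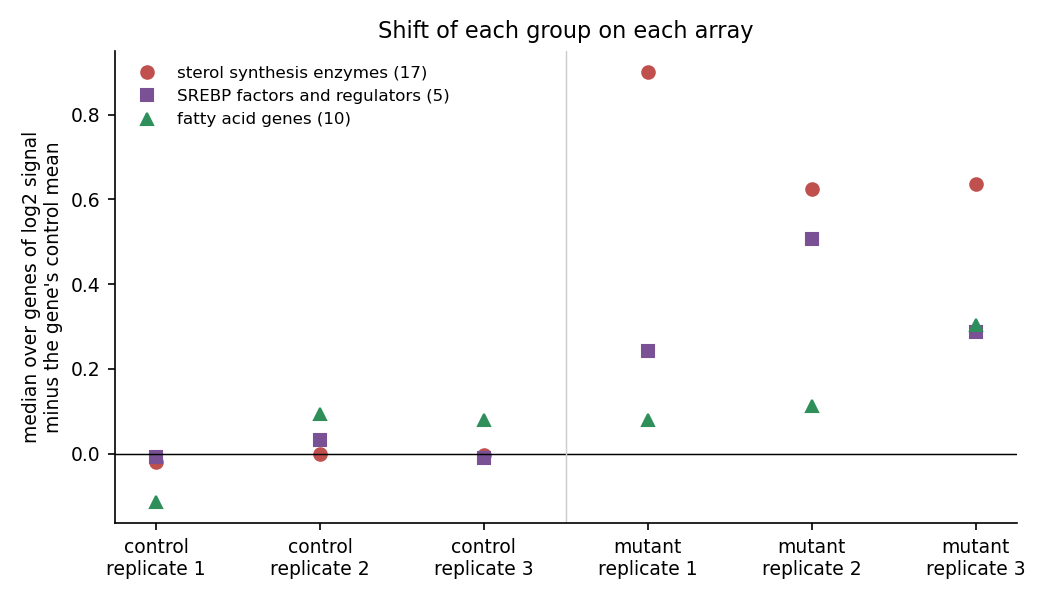
Median over genes of the log2 signal minus the control mean of the gene (y axis), per array (x axis), for the sterol synthesis enzymes, the SREBP factors with their regulators and the fatty acid genes, with the number of genes in the legend. The sterol enzymes stand at 0.62 to 0.90 on the mutant arrays and near 0 on the control arrays, and the fatty acid genes at 0.08, 0.11 and 0.30 on the mutant arrays.

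Both SREBP genes rose. Srebf2 read 8.21, 8.38 and 8.32 in controls and 9.05, 8.94 and 9.03 in mutants, a rise of 0.70 ± 0.08 on the log2 scale (limma adjusted p = 9.0e-04) that was called in all 6 fits without 1 replicate. Srebf1 read 8.19, 8.23 and 8.17 against 8.44, 8.71 and 8.56, a rise of 0.37 ± 0.09 (limma adjusted p = 0.0225). The Srebf1 probe set does not separate the isoforms that its promoters give. The call of Srebf1 was lost without any one of the 3 controls or without mutant replicate 2 or 3, at adjusted p-values of up to 0.0734, with the difference between 0.30 and 0.44.

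Insig1, which retains SCAP and is itself an SREBP target, read 11.39, 11.56 and 11.56 in controls and 11.75, 12.01 and 11.79 in mutants, a rise of 0.35 ± 0.10 (limma adjusted p = 0.0437). Its call was lost in each of the 6 fits that left out 1 replicate, at adjusted p-values of 0.0579 to 0.130, and also with quantile normalization (limma adjusted p = 0.0747) and with arrays centred on their medians (limma adjusted p = 0.0716). Insig2, the other isoform, read 10.02, 10.03 and 10.01 against 9.94, 9.86 and 9.94, a difference of -0.11 (-0.26 to 0.05, limma adjusted p = 0.353). Its 3 mutant arrays lay below the controls by a small step that did not pass the test. Scap read 9.17, 9.09 and 9.08 against 8.84, 8.75 and 8.90 and fell by 0.28 ± 0.08 (limma adjusted p = 0.0373). The Scap call held without mutant replicate 3 and was lost without each of the other replicates (adjusted p of up to 0.124), while the difference stayed between -0.32 and -0.24.

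Sterol transport was represented by 2 genes. Stard4, a cytosolic carrier of cholesterol, read 9.25, 9.46 and 9.41 in controls and 10.0, 9.66 and 10.0 in mutants, a rise of 0.51 ± 0.11 (limma adjusted p = 0.0183). That call was lost without control replicate 1 or 3 or mutant replicate 1 or 3, at adjusted p-values of up to 0.0630. Npc1l1, the cholesterol importer of the brush border and the target of ezetimibe, read 12.58, 12.42 and 12.36 against 12.39, 12.15 and 12.09, a difference of -0.24 (-0.48 to -0.0045, limma adjusted p = 0.163). The highest Npc1l1 mutant array lay within the control range.

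The fatty acid genes split in both directions. Of 10 genes, 3 rose, 2 fell and 5 were not called (background 8.04% and 8.82%), with a median difference of 0.19. Elovl5, an elongase of polyunsaturated fatty acids, read 9.48, 9.72 and 9.69 in controls and 8.99, 9.11 and 8.94 in mutants, and fell by 0.62 ± 0.09 on the log2 scale (limma adjusted p = 0.00342). Elovl6, the elongase that takes palmitate to stearate, read 11.64, 11.71 and 11.80 against 11.23, 11.05 and 11.20, and fell by 0.56 ± 0.08 (limma adjusted p = 0.00347). Both were called in all 6 fits without 1 replicate, and neither group overlapped the other.

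Acss2, which makes acetyl-CoA from acetate in the cytosol, read 6.88, 6.96 and 6.92 in controls and 7.50, 7.26 and 7.25 in mutants, a rise of 0.42 ± 0.09 (limma adjusted p = 0.0161, and 0.0518 without control replicate 3). Scd1, the stearoyl-CoA desaturase of lipogenic tissues, read 4.41, 4.79 and 4.74 against 4.92, 5.46 and 5.42, a rise of 0.62 ± 0.16 (limma adjusted p = 0.0365). Its call held without mutant replicate 1 and was lost without each of the other replicates, at adjusted p-values of up to 0.125. With an offset of 32 on the linear scale its difference was 0.31 (limma adjusted p = 0.0615). Both group means of Scd1 lay under the array medians, so the change is a ratio of low signals, and whether they stood above background was not tested. Scd2, a closely related desaturase, read 6.73, 6.78 and 6.87 against 7.25, 7.55 and 8.05, a rise of 0.82 ± 0.18 (limma adjusted p = 0.0180). That call was lost without control replicate 1 or 2 or mutant replicate 2, at adjusted p-values of up to 0.0569. Scd1 and Scd2 are similar in sequence, and reads of one by the probes of the other were not tested.

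The enzymes that build the fatty acid chain were not called. Fasn, fatty acid synthase, read 7.35, 7.74 and 7.65 in controls and 7.65, 7.71 and 7.99 in mutants, a difference of 0.20 (-0.10 to 0.50). Acaca, acetyl-CoA carboxylase, differed by 0.20 (-0.05 to 0.45), and Acly, ATP citrate lyase, by 0.18 (-0.01 to 0.37). Their adjusted p-values in limma ran from 0.204 to 0.353. The desaturases of polyunsaturated fatty acids varied widely among the controls. Fads1 read 7.38, 8.17 and 8.02 against 7.34, 7.53 and 7.71, and Fads2 read 8.15, 8.86 and 8.83 against 8.60, 8.25 and 8.79. In both, control replicate 1 stood apart from the other 2 controls. Fads1 differed by -0.33 (-0.79 to 0.13), and without control replicate 1 it fell by 0.57 on the log2 scale (limma adjusted p = 0.0267). Among the 6 fits without 1 replicate only that fit called Fads1. In the others its difference was as small as -0.17, with limma adjusted p-values of up to 0.646. Fads2 differed by -0.07 (-0.55 to 0.42).

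Scd2, Fasn, Acaca and Acly all read highest in mutant replicate 3, the array with the high Alb signal. The 5 hepatocyte markers measured had a summed linear signal of 4877 there, against 208 to 542 on the other arrays. Most of that sum is Alb, and none of the 5 was called. Their differences were 2.17 (Alb), 1.03 (Apoh), 0.28 (F2), 0.07 (Cyp2c29) and 0.03 (Tat). Without mutant replicate 3 the Scd2 difference was 0.61 (limma adjusted p = 0.0138). Fasn, Acaca and Acly were not called in any fit that left out 1 replicate. The part of this signal in the values with mutant replicate 3 was not tested.

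**Figure D4:**
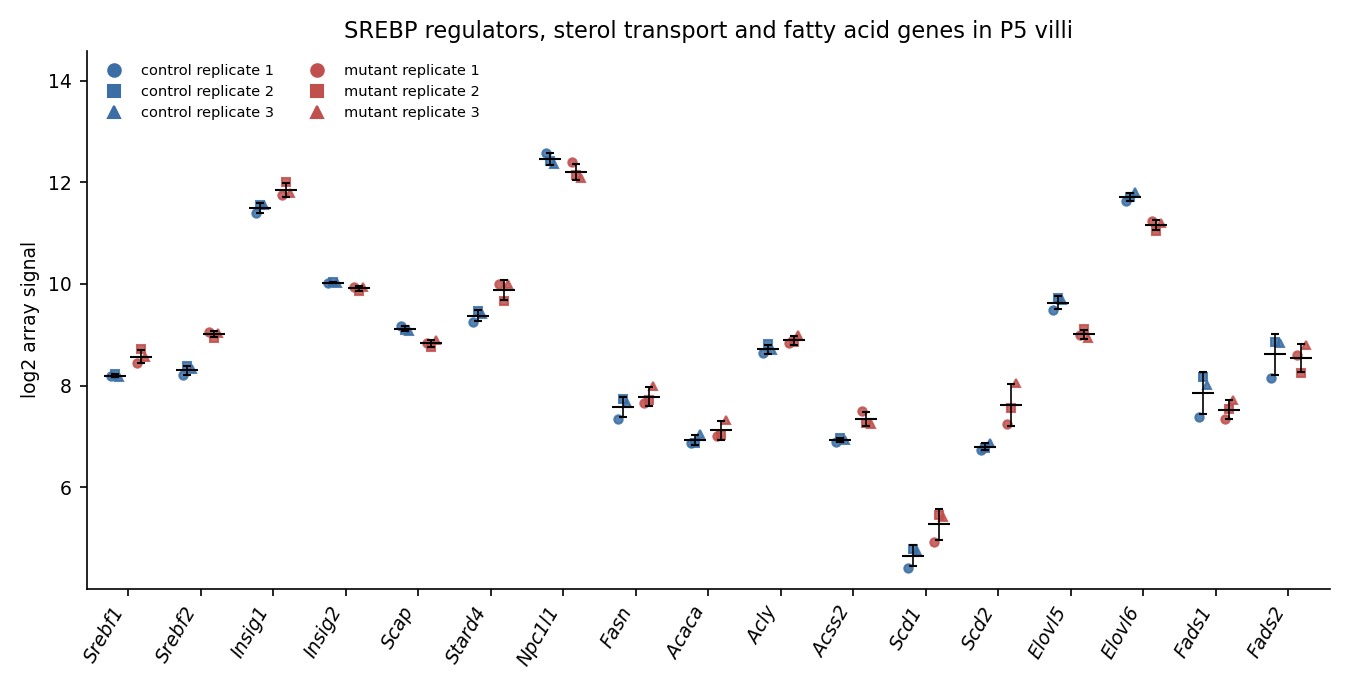
Log2 array signal (y axis) of the SREBP factors and regulators, the sterol transport genes and the fatty acid genes (x axis) in control (blue) and mutant (red) villi, 3 replicates each with a marker per replicate number. Horizontal bars are means and vertical bars are SD, and signals of different genes are not on one scale. Srebf2 separates cleanly, Elovl5 and Elovl6 lie lower in the mutant, and Fads1 and Fads2 spread widely among the controls.

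Other genes of the same metabolism were read from lists fixed with earlier results known. Of 13 genes of SREBP processing and sterol sensing, 0 rose and 2 fell (background 8.04% and 8.82%), with a median difference of -0.12. In the mutant mean 3 of the 13 were higher, against 50.1% of all probe sets. The mutant arrays all lay below the control arrays for 7 genes, against 17.6% of all probe sets, and above them for 1, against 16.9%. Mbtps1, the site-1 protease that cuts SREBPs in the Golgi apparatus, read 9.19, 9.27 and 9.27 in controls and 8.79, 8.71 and 8.94 in mutants and fell by 0.43. Erlin1, an endoplasmic reticulum protein that binds SREBP and SCAP, also fell by 0.43 (limma adjusted p = 0.0107 for Mbtps1 and 0.0123 for Erlin1). The NF-Y subunit genes Nfya and Nfyb differed by -0.30 and 0.29 without passing the test, and Sp1 by 0.15.

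Of 12 genes of the side branches of the pathway, 11 were higher in the mutant mean, against 50.1% of all probe sets, and 2 rose, against 8.04%. These were the prenyltransferase subunit genes Fntb (0.25) and Pggt1b (0.26), whose calls were lost in each of the 6 fits without 1 replicate, at adjusted p-values of up to 0.106 and 0.133. The median difference was 0.21.

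Of 12 genes of sterol uptake, storage and intracellular transport, 4 rose and 1 fell (background 8.04% and 8.82%), with a median difference of 0.01. Vldlr, the receptor of very low density lipoprotein, read 5.91, 6.04 and 5.98 in controls and 7.43, 7.57 and 7.27 in mutants, a rise of 1.45 on the log2 scale (limma adjusted p = 9.4e-05) over control signals under the array medians. Lrp8, a receptor of apolipoprotein E of the same family, read 6.58, 6.58 and 6.40 against 8.35, 7.96 and 7.59, also a rise of 1.45 (limma adjusted p = 0.00134). Scarb1, the receptor of high density lipoprotein, rose by 0.77, and Mylip, the ubiquitin ligase that degrades lipoprotein receptors and is a target of LXR, rose by 0.56. Gramd1b, which carries cholesterol from the plasma membrane to the endoplasmic reticulum, fell by 0.44. All 5 were called in each fit without 1 replicate.

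LXR is the nuclear receptor that answers high sterol and drives efflux. Of 9 genes of LXR and sterol efflux, 2 rose and 4 fell (background 8.04% and 8.82%), with a median difference of -0.16. Abcg5 read 11.27, 11.41 and 11.37 in controls and 10.20, 10.32 and 10.44 in mutants and fell by 1.03 on the log2 scale (limma adjusted p = 2.7e-04). Abcg8, whose product pairs with that of Abcg5 to pump sterol back into the lumen, fell by 1.00 (limma adjusted p = 5.2e-04). Nr1h3, which encodes LXR alpha, fell by 0.56 (limma adjusted p = 0.00578). Abcc5, a transporter of organic anions, rose by 0.80 (limma adjusted p = 7.6e-04). The other calls, which were named after their values were seen, were Lpcat3 (a rise of 0.31) and Pltp (which fell by 0.34), and each was lost in 5 of the 6 fits without 1 replicate. Abca1, a further LXR target, differed by 0.71 without passing the test (limma adjusted p = 0.0656), and its mutant arrays spread from 6.36 to 7.28. The list therefore did not move one way.

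Of 29 further genes of fatty acid and lipid synthesis, 8 rose and 1 fell (background 8.04% and 8.82%), with a median difference of 0.05. Without mutant replicate 2, 4 rises were left, and Acacb, Acsl4, Hacd2 and Me1 lost their calls. Elovl2, an elongase of long polyunsaturated fatty acids, read 9.60, 9.62 and 9.71 in controls and 7.86, 8.79 and 8.61 in mutants and fell by 1.22 on the log2 scale (limma adjusted p = 0.00692). Elovl2, Elovl5 and Elovl6 thus all fell, while Elovl7 rose by 0.94 (limma adjusted p = 0.00289). Elovl1, Elovl3 and Elovl4 differed by -0.03, -0.26 and 0.06 and were not called. Lpin2, a phosphatidate phosphatase, rose by 1.16 (limma adjusted p = 2.4e-04). Me1, the malic enzyme that supplies NADPH, read 10.10, 9.97 and 10.0 against 10.88, 10.80 and 10.20, a rise of 0.60 whose call held only without mutant replicate 3 among the 6 fits without 1 replicate (limma adjusted p = 0.0450 with all arrays and up to 0.149 otherwise). Its second probe set gave 0.57 (limma adjusted p = 0.0549).

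**Figure D5:**
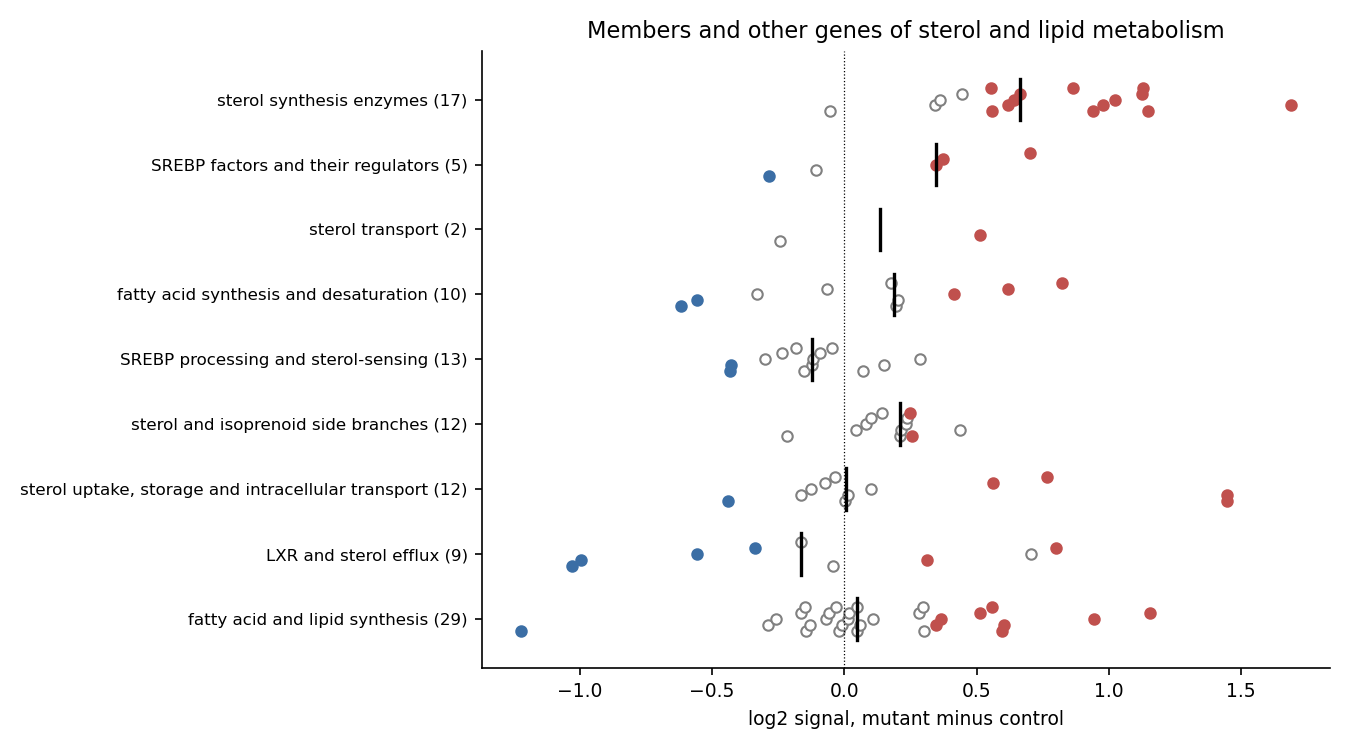
Log2 signal in mutant minus control villi (x axis) for each gene of the 4 member groups and of the 5 other lists of sterol and lipid metabolism (y axis, number of genes measured in brackets). Filled red points rose, filled blue points fell, open points were not called at an adjusted p of 0.05, and black bars are medians. The sterol synthesis enzymes have the highest median, 0.66, and the medians of the other 5 lists lie between -0.16 and 0.21.

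Markers of cell types moved between the same groups of arrays. Of 7 markers of proliferating cells, 5 rose and 0 fell (background 8.04% and 8.82%), with 2 rises left without mutant replicate 2 or 3, and their summed linear signal was 2159 to 2865 in controls and 3759 to 4056 in mutants. Of 6 goblet cell markers, 0 rose and 5 fell, and their sum was 21829 to 23745 in controls and 3481 to 4195 in mutants, with Muc2, which fell by 2.69 on the log2 scale. Of 10 enterocyte markers, 4 rose and 1 fell, with 1 rise left without control replicate 2 or mutant replicate 1. Krt20, a keratin of differentiated enterocytes, rose by 1.37, and Fabp1, of the same list, fell by 0.59. Both were called in all 6 fits without 1 replicate. The median difference of the 10 enterocyte markers was 0.15. Among the control arrays, replicate 1 had the lowest sum of proliferation markers. The part of these shifts in the rise of the sterol enzymes was not tested.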

How the data were processed

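Villi of control and mutant P5 littermates were profiled in 3 replicates per group, 1 array per replicate. The authors deposited 1 table of log2 signals, rounded to 0.01, and no source used here gives their background correction or normalization. Of 30177 probe sets, 21789 had 1 gene symbol in the platform annotation, 1621 several and 6767 none. Symbols of 21698 were updated through Entrez identifiers. The groups were tested in R 4.3.3 with limma 3.58.1 (lmFit and eBayes, Benjamini-Hochberg adjustment over all probe sets, call at an adjusted p of at most 0.05), and "rose" and "fell" are used of called genes. The fit was tested on simulated data. The number of arrays limits the precision. The members and all gene lists were chosen with earlier results of these data known. Values in every array are given for called members and for Srebf1, Srebf2, Insig1, Insig2 and Scap, and of other lists up to 4 called genes with the largest change were named. Genes named beyond that were chosen after their values were seen. Promoters are the RefSeq windows of GRCm38.p6. Alternatives were array weights, a trend with robust estimation, quantile normalization, a block for the replicate number, centring on array medians, no dim probe sets, an offset of 32 on the linear scale, the probe set with the lowest mean, other uses of control replicates, and leaving out each replicate.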

Additional observations from a re-analysis of the deposited data

How the results depend on the processing

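With every alternative other than control replicate 1 as the only control, 14 (at an adjusted p of 0.01) to 21 members rose and 2 or 3 fell, and 13 or 14 sterol enzymes rose. With control replicate 1 as the only control, 11 members rose, 10 of them sterol enzymes, and 0 fell, and of the fatty acid genes 0 rose and 0 fell. With an offset of 32, 3 members rose at least 2-fold and the median difference of the members was 0.38. With replicates 2 and 3 of each group alone, which was chosen after seeing the data, 1 member rose at least 2-fold. Leaving out each replicate in turn, 1 to 3 fatty acid genes rose. The sign turned for genes that were not called. Ebp ran from -0.105 to 0.005 without 1 replicate and stood at 0.015 with replicates 2 and 3 alone. Fads1 stood at 0.147 with control replicate 1 as the only control. Fads2 ran from -0.298 to 0.0817 without 1 replicate and stood at 0.0492 with control replicates 2 and 3 averaged and at 0.40 with control replicate 1 as the only control. With a replicate block (the replicate number as a term), 21 members rose and 2 fell, Scap being lost (limma adjusted p = 0.0596) and Tm7sf2 gained (limma adjusted p = 0.0350). Same-numbered arrays correlated by 0.174, 0.039 and 0.119 in their deviations, and differently numbered arrays by -0.162 to 0.085. These values do not settle whether the numbers pair the samples, and the main fit did not pair them. Without mutant replicate 2, 1561 probe sets rose and 1688 fell in all, against 2427 and 2661. The added motif TCACNCCA was in 3 of 27 member windows (Hmgcs1, Msmo1 and Srebf2), against 4.20% of genes.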

Other observations

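Neighbours of members in gene order were looked up after the values were seen. Mmab lies beside Mvk and differed by 0.10 (limma adjusted p = 0.427), where Mvk rose by 0.66. Scd3 and Scd4 lie in the cluster of Scd1 and Scd2 and differed by 0.05 and -0.06 without being called (limma adjusted p = 0.735 and 0.688). Their signals lay under the array medians, and whether they stood above background was not tested. Abcg5 and Abcg8, which are neighbours, both fell. Tmem97, a sterol-regulated membrane protein of the endoplasmic reticulum, differed by 0.44 at its brighter probe set (limma adjusted p = 0.0594) and rose by 0.36 at its other (limma adjusted p = 0.0320).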
